A study of Homo sapiens with 18 samples.

Results

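The myeloid growth factors and receptors described here are 8 genes: the ligands CSF1, FLT3LG and KITLG, the receptor kinases CSF1R, FLT3 and KIT, and the cytokine receptor chains CSF3R and CSF2RB. They were chosen by name, as the probes whose only gene symbol is one of the 8, with the probe of highest mean signal per symbol. Each of the 8 was matched by exactly 1 probe, among 17687 genes that the 21448 probes name. The arrays measured RNA of OCI-AML3, an established human acute myeloid leukaemia cell line whose genotype the labels give as wildtype, after 24 h with RG7112 at 2 µM, with HDM201 at 500 nM or with the solvent DMSO. Both compounds inhibit MDM2, the ubiquitin ligase that holds p53 protein low, and each was given at 1 dose and 1 time to 6 biological replicates, as was DMSO. How the cultures of 1 group relate to each other is not in the labels, so p-values speak only of variation among the 18 samples measured. All values are log2 signals, changes are differences of group means on that scale with the standard error (SE) of a linear model, and n = 6 arrays per group unless another n is given. A gene is said to have risen or fallen where its p, adjusted over all 21448 probes, was under 0.05.

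Myeloid growth factors tell blood progenitors to survive, divide and mature. CSF1 drives monocytes and macrophages through the kinase CSF1R, FLT3LG acts on early progenitors and dendritic cell precursors through FLT3, and KITLG, also called stem cell factor, acts through KIT on stem cells and mast cells. CSF1R, FLT3 and KIT belong to one family of receptor tyrosine kinases and pair up when their ligand binds. CSF3R, the receptor of the granulocyte factor G-CSF, and CSF2RB, the beta chain shared by the receptors of IL-3, IL-5 and GM-CSF, have no kinase of their own and signal through JAK kinases and STAT proteins. The ligands CSF1 and KITLG and the receptors CSF1R and KIT are also known to be cut from the cell surface by proteases of the ADAM family.

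The stretches just before the start sites of a receptor that fell, a ligand that rose and a receptor that did not pass the test are given below, to show the sequence next to which these transcripts begin. They come from RefSeq on build GRCh38.p14, which held 9 such windows for 6 of the 8 members (CSF1 and CSF2RB were not matched). Each runs 5′ to 3′ along the gene for the 250 bases before the start. For CSF1R the downstream of 2 listed starts is shown, which is the start known to be used in myeloid cells. Capitals mark letters that match 1 of 5 motifs searched on both strands: TTGCNNAA (C/EBP), TGTGGT (RUNX), GAGGAA (PU.1), TTTGAA (CHR, an element of cell cycle genes) and the p53 half-site.
FLT3, chr13:28100577-28100826, minus strand: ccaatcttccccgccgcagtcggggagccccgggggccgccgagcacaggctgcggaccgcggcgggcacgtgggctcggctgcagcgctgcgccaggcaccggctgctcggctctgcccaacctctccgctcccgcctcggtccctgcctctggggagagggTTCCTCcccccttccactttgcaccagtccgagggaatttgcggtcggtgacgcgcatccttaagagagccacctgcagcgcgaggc
KITLG, chr12:88580472-88580721, minus strand: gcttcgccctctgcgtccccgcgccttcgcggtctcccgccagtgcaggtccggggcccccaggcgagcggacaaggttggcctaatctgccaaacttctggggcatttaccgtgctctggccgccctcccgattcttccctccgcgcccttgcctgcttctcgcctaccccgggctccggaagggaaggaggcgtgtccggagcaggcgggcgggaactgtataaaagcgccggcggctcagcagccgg
CSF1R, chr5:150086555-150086804, minus strand: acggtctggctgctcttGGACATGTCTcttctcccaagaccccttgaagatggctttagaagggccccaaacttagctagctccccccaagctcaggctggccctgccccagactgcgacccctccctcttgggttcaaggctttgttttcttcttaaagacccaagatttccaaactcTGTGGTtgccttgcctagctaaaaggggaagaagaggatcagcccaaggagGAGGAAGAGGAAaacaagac
The FLT3 window held 1 match, GAGGAA on the opposite strand at position -87 counted from the start, and the KITLG window held none of the 5 motifs. The CSF1R window held TGTGGT at -71, GAGGAA at -20 and again at -14, where the 2 copies adjoin, and 1 p53 half-site at -233. Over 35116 windows of the same length, 23.6% held GAGGAA, 11% TGTGGT, 13.3% TTTGAA, 9.05% the C/EBP letters and 5.57% a p53 half-site. The FLT3 and KITLG windows were rich in G and C, at 72.0% and 69.2%, and the CSF1R window had 53.2%, against a mean of 57.2% over all windows. These are matches of letters and do not show a bound factor.

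Before the members, some facts of the whole set of arrays matter. CDKN1A, which encodes the p53-induced cell cycle inhibitor p21, rose by 3.97 ± 0.33 under RG7112 (adjusted p = 9.07e-08) and by 4.10 ± 0.33 under HDM201 (adjusted p = 2.28e-08), and MDM2 by 2.57 ± 0.17 and 2.58 ± 0.17. Earlier results of these data separated the first 3 replicates of each group from the last 3. The labels name no batch, so for the members that changed and some other genes, changes within each set of 3 are given beside the pooled ones. Under RG7112 and HDM201 CDKN1A rose by 3.57 and 3.66 within replicates 1 to 3 and by 4.36 and 4.54 within replicates 4 to 6. MDM2 rose by 2.32 and 2.28 within replicates 1 to 3 and by 2.82 and 2.89 within replicates 4 to 6. For both genes the difference between the sets did not pass. RG7112 replicate 3 had a narrower spread of signals (interquartile range 3.45) than the rest (3.70 to 3.91), and its mean correlation with its own group was 0.972 where the rest had 0.986 to 0.994. Array medians were 6.44 to 6.57 and the lowest signals 2.66 to 2.85. Precision is limited by having 6 arrays in a group. Of the 5 measured myeloid markers 4 had mean signals over 8 (LYZ, PTPRC, SPI1 and ANPEP), whereas MPO, the granule enzyme myeloperoxidase, was dim at 5.16 to 5.92 over all arrays. The 5 T cell markers had means of 3.67 (CD3G) to 5.51 (CD247), and 1 of them, CD247, rose under both compounds (0.33 and 0.29). Of the 3 measured B cell markers MS4A1 was dim at 3.76, while CD79A and CD79B were at 6.91 and 6.63, and CD79B rose under RG7112 (0.41). Signals near or over 8 were not limited to myeloid markers. The fibroblast marker COL1A2 had a mean of 8.32 and the epithelial marker KRT8 a mean of 7.97. KRT8 rose under RG7112 (0.44), and EPCAM, also epithelial, fell under HDM201 (-0.40). Erythroid markers had means of 4.05 to 5.10 and megakaryocyte markers 4.26 to 6.49, and none of them passed. The T cell list mean per array was 4.47 to 4.77 in RG7112, 4.45 to 4.75 in HDM201 and 4.36 to 4.54 in DMSO, and the B cell list mean 5.62 to 6.04, 5.72 to 5.97 and 5.46 to 5.80. The part of these markers in the results was not tested. Because these are bulk samples, fewer cells of a type and less RNA per cell cannot be told apart.

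Of the 8 members CSF1 and KITLG rose and FLT3 fell under RG7112, and CSF1, KITLG and CSF3R rose and FLT3 fell under HDM201. FLT3LG, CSF1R, KIT and CSF2RB passed in neither comparison. The 3 changed of 8 under RG7112 stand beside 17.5% of all probes (7.9% rose and 9.61% fell), and the 4 of 8 under HDM201 beside 18.8% (9.16% rose and 9.64% fell). The arrays of the treated and DMSO groups did not overlap for the same 3 members under RG7112, against 9.9% of all probes, and for the same 4 under HDM201, against 13.6%; these are the members that passed. The median change over the 8 members was 0.08 under RG7112 and 0.12 under HDM201, beside 0.03 and 0.02 over all probes. Both comparisons use the same 6 DMSO arrays, so each gives its own values and their likeness is not a separate result. In the plot of signals by array the 3 ligands come first, then the 3 kinases and the 2 cytokine receptor chains.

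**Figure D1:**
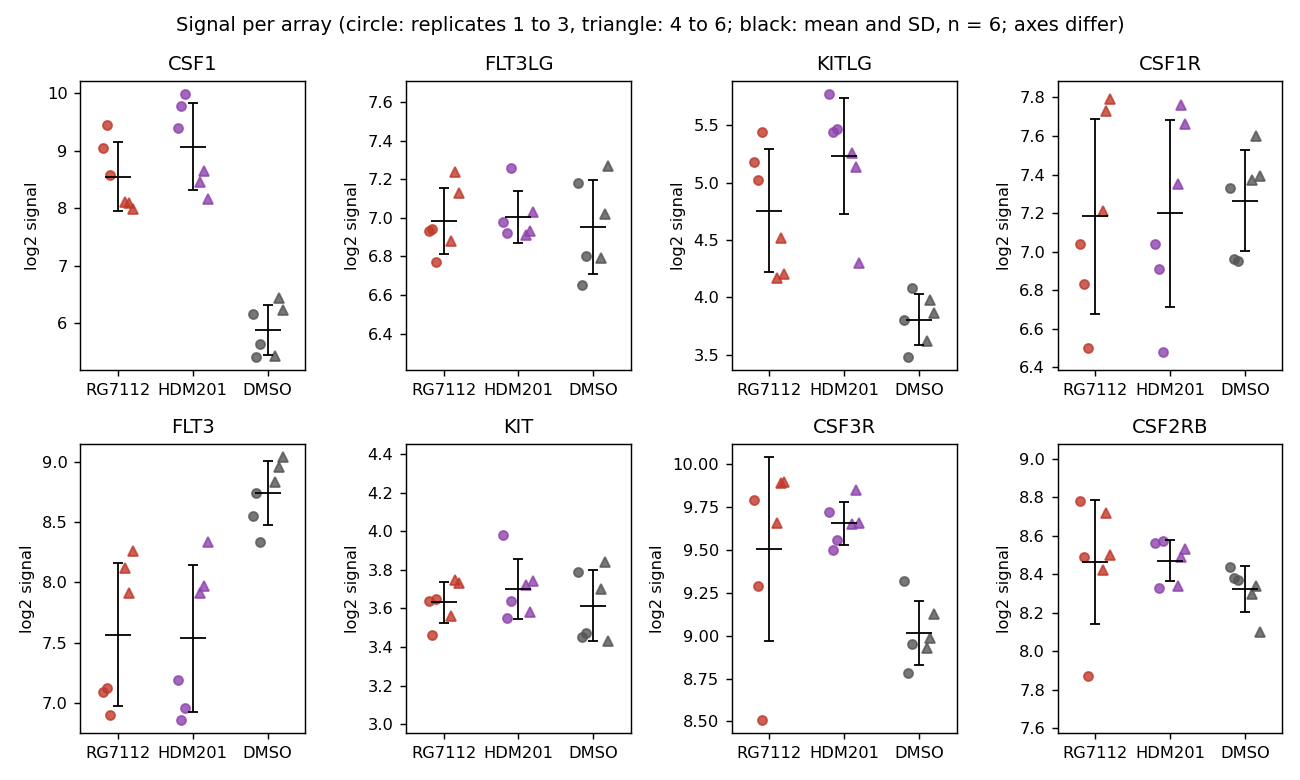
Log2 signal (vertical axis, scaled separately in each panel) of the 8 members on each array treated with RG7112, HDM201 or DMSO, with circles for replicates 1 to 3, triangles for replicates 4 to 6 and black bars for the mean and SD of 6 arrays. CSF1 on treated arrays starts at 7.99, above the highest DMSO array at 6.43, and FLT3 on treated arrays ends at 8.33, just under the lowest DMSO array.

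CSF1, the macrophage growth factor, moved most among the members. Its signal was 7.99 at the lowest, 8.35 at the median and 9.45 at the highest in RG7112 arrays, 8.15, 9.02 and 9.98 in HDM201 arrays, and 5.41, 5.90 and 6.43 in DMSO arrays. All 12 treated arrays lay above all DMSO arrays by more than 1 unit. CSF1 rose by 2.66 ± 0.31 under RG7112, which is 6.34-fold (adjusted p = 3.43e-06), and by 3.18 ± 0.31 under HDM201, which is 9.09-fold (adjusted p = 2.09e-07). The change was larger in replicates 1 to 3 (3.29 under RG7112 and 3.98 under HDM201) than in replicates 4 to 6 (2.04 and 2.39). The difference between the sets did not pass for RG7112 (1.25 ± 0.36, adjusted p = 0.511) or for HDM201 (1.60 ± 0.36, adjusted p = 0.115). For HDM201 it passed without DMSO replicate 4 (adjusted p = 0.0383) and without RG7112 replicate 3 (0.0415), and with array weights it passed for HDM201 (0.00235) and RG7112 (0.00929).

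KITLG, the ligand of KIT, rose too, and was dim in every DMSO array. It was at 4.17 at the lowest, 4.77 at the median and 5.44 at the highest in RG7112 arrays, 4.30, 5.35 and 5.77 in HDM201 arrays, and 3.48, 3.83 and 4.08 in DMSO arrays. The treated arrays all lay above the DMSO arrays, in RG7112 by a margin of less than 0.1, and every DMSO array lay under 4.65, the lower quartile of mean signals over all probes. The signal of KITLG rose by 0.95 ± 0.23 under RG7112 (adjusted p = 0.00510) and by 1.43 ± 0.23 under HDM201 (adjusted p = 7.96e-05). Its DMSO signals are not shown to lie above background, so these are given as differences of signal, without a fold of transcript. Within replicates 1 to 3 the changes were 1.43 and 1.77, and within replicates 4 to 6 they were 0.48 and 1.08. The RG7112 call was lost with replicates 4 to 6 alone (adjusted p = 0.213), and the difference between the sets did not pass under RG7112 (adjusted p = 0.605) or HDM201 (adjusted p = 0.739). HDM201 replicate 6 was at 4.30 while the other HDM201 arrays were at 5.14 to 5.77.

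FLT3LG, the third ligand, was at a median of 6.93 in RG7112 arrays (6.77 to 7.24), 6.95 in HDM201 arrays (6.91 to 7.26) and 6.91 in DMSO arrays (6.65 to 7.27). The 3 groups overlapped over most of their range. It differed by 0.03 ± 0.11 under RG7112 (95% interval -0.20 to 0.25, adjusted p = 0.888) and by 0.05 ± 0.11 under HDM201 (-0.18 to 0.28, adjusted p = 0.821). A change of more than 0.28 in either direction lay outside both intervals.

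FLT3, the receptor of FLT3LG and a marker of immature myeloid cells, was the member that fell. Its signal was 6.90 at the lowest, 7.51 at the median and 8.26 at the highest in RG7112 arrays, 6.86, 7.55 and 8.33 in HDM201 arrays, and 8.33, 8.78 and 9.04 in DMSO arrays. No treated array reached the lowest DMSO array, DMSO replicate 3, though HDM201 replicate 6 came within 0.01 of it. FLT3 fell 2.26-fold under RG7112 (-1.17 ± 0.26, adjusted p = 0.00302) and 2.31-fold under HDM201 (-1.21 ± 0.26, adjusted p = 0.00194). The fall was -1.50 and -1.54 within replicates 1 to 3 and -0.85 and -0.88 within replicates 4 to 6, and the difference between the sets did not pass (adjusted p = 0.591 and 0.383). Under RG7112 the range was 6.90 to 7.12 in replicates 1 to 3 and 7.91 to 8.26 in replicates 4 to 6.

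CSF1R, the receptor of CSF1, did not pass in either comparison. It was at 6.50, 7.13 and 7.79 (lowest, median and highest) in RG7112 arrays, 6.48, 7.19 and 7.76 in HDM201 arrays, and 6.95, 7.35 and 7.60 in DMSO arrays. The treated ranges enclosed the DMSO range on both sides. The differences were -0.08 ± 0.22 under RG7112 (95% interval -0.54 to 0.38, adjusted p = 0.842) and -0.07 ± 0.22 under HDM201 (-0.53 to 0.39, adjusted p = 0.889). Within replicates 1 to 3 CSF1R was lower on treated arrays on average (-0.29 and -0.27), and within replicates 4 to 6 higher (0.12 and 0.14). That difference between the sets did not pass (adjusted p = 0.851 and 0.897).

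KIT, the receptor of KITLG, was dim in every group. Its signals were 3.46 to 3.75 in RG7112 arrays, 3.55 to 3.98 in HDM201 arrays and 3.43 to 3.84 in DMSO arrays, all under the lower quartile of 4.65. At such signals an array does not separate a low level from none. KIT differed by 0.02 ± 0.09 under RG7112 (adjusted p = 0.928) and by 0.09 ± 0.09 under HDM201 (adjusted p = 0.602). The 3 measured mast cell markers, TPSAB1, CPA3 and HDC, did not pass either, with a list mean per array of 5.16 to 5.52 in RG7112, 5.20 to 5.44 in HDM201 and 5.08 to 5.31 in DMSO.

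CSF3R, the G-CSF receptor, was at 8.51 at the lowest, 9.72 at the median and 9.90 at the highest in RG7112 arrays, 9.50, 9.66 and 9.85 in HDM201 arrays, and 8.78, 8.97 and 9.32 in DMSO arrays. The HDM201 arrays lay above all DMSO arrays, and the RG7112 arrays ran from below the lowest DMSO array to the highest signals of all. CSF3R rose 1.56-fold under HDM201 (0.64 ± 0.18, adjusted p = 0.0120), with 0.57 within replicates 1 to 3, where the call was lost (adjusted p = 0.238), and 0.71 within replicates 4 to 6. Under RG7112 the difference of 0.49 ± 0.18 missed the threshold (adjusted p = 0.0587), with 0.18 within replicates 1 to 3 and 0.80 within replicates 4 to 6. RG7112 replicate 3, the array with the narrow signal range, had the value of 8.51. Without it CSF3R rose by 0.69 (adjusted p = 1.60e-04), and it also passed without DMSO replicate 1 (0.0430) and within replicates 4 to 6 alone (4.71e-04).

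CSF2RB, the shared beta chain, showed the same array at the bottom. It was at 7.87, 8.49 and 8.78 in RG7112 arrays, 8.33, 8.51 and 8.57 in HDM201 arrays, and 8.10, 8.36 and 8.44 in DMSO arrays. The groups overlapped in both comparisons. The differences of 0.14 ± 0.12 under RG7112 (adjusted p = 0.452) and 0.15 ± 0.12 under HDM201 (adjusted p = 0.455) did not pass. Without RG7112 replicate 3, which gave the 7.87, the RG7112 difference was 0.26 and passed (adjusted p = 0.0382), so the number of members that rose under RG7112 was 4 without that array. The plot of changes sets the 8 members side by side.

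**Figure D2:**
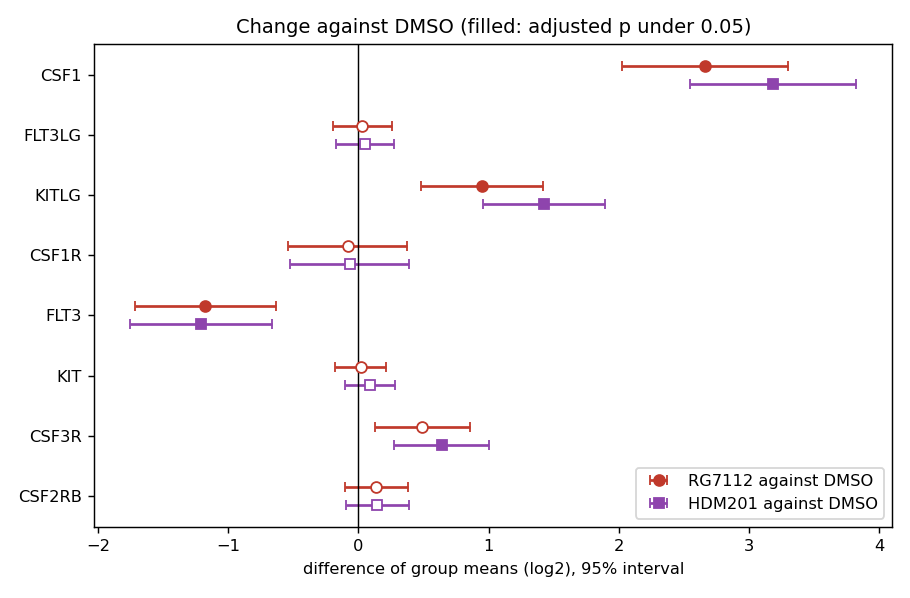
Change of each member against DMSO (horizontal axis, difference of group means on the log2 scale, with its 95% interval) under RG7112 (circles) and HDM201 (squares), filled where the adjusted p was under 0.05. CSF1 and KITLG lie to the right of 0 and FLT3 to the left of it under both compounds, while CSF3R is filled for HDM201 and open for RG7112.

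Each ligand can be set beside its receptor. CSF1 rose by 2.66 and 3.18 while CSF1R differed by -0.08 and -0.07. KITLG rose by 0.95 and 1.43 while KIT stayed near the bottom of the signal range in all 3 groups. FLT3 fell by 1.17 under RG7112 and by 1.21 under HDM201 on the log2 scale, while FLT3LG differed by 0.03 and 0.05. These are changes of transcript signal, and no protein was measured.

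The 2 sets of replicates differed in level for some members also under DMSO. FLT3 was at 8.54 ± 0.20 in DMSO replicates 1 to 3 and at 8.94 ± 0.10 in DMSO replicates 4 to 6 (SD, n = 3 each). CSF1R was at 7.08 ± 0.21 in DMSO replicates 1 to 3 and 7.45 ± 0.13 in DMSO replicates 4 to 6 (SD, n = 3 each). The CSF1R ranges of the sets were 6.50 to 7.04 and 7.21 to 7.79 under RG7112, and 6.48 to 7.04 and 7.35 to 7.76 under HDM201. Under DMSO they were 6.95 to 7.33 and 7.37 to 7.60. CSF2RB went the other way under DMSO, at 8.37 to 8.44 in replicates 1 to 3 and 8.10 to 8.34 in replicates 4 to 6. Its sets overlapped under RG7112 and HDM201. CDKN1A moved with the sets as well, at 9.06 ± 0.10 in DMSO replicates 1 to 3 and 7.41 ± 0.23 in DMSO replicates 4 to 6 (SD, n = 3 each), and its part in these levels was not tested. CSF1 and KITLG under DMSO overlapped between the sets. The sets were found from these data, so their levels are described without a test. No share of all probes that separate between the sets is given, so these ranges do not set any member apart from other genes. The plot of changes within the sets shows each member with replicates 1 to 3 along 1 axis and replicates 4 to 6 along the other. In the main fit none of the 8 members passed for a different change between the sets, against 0.0373% of all probes for RG7112 and 0.149% for HDM201. With array weights CSF1 passed for both compounds. Because the sets come from these same arrays, the adjusted p-values for a difference between them only describe these arrays. Not passing does not show an equal change in the 2 sets.

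**Figure D3:**
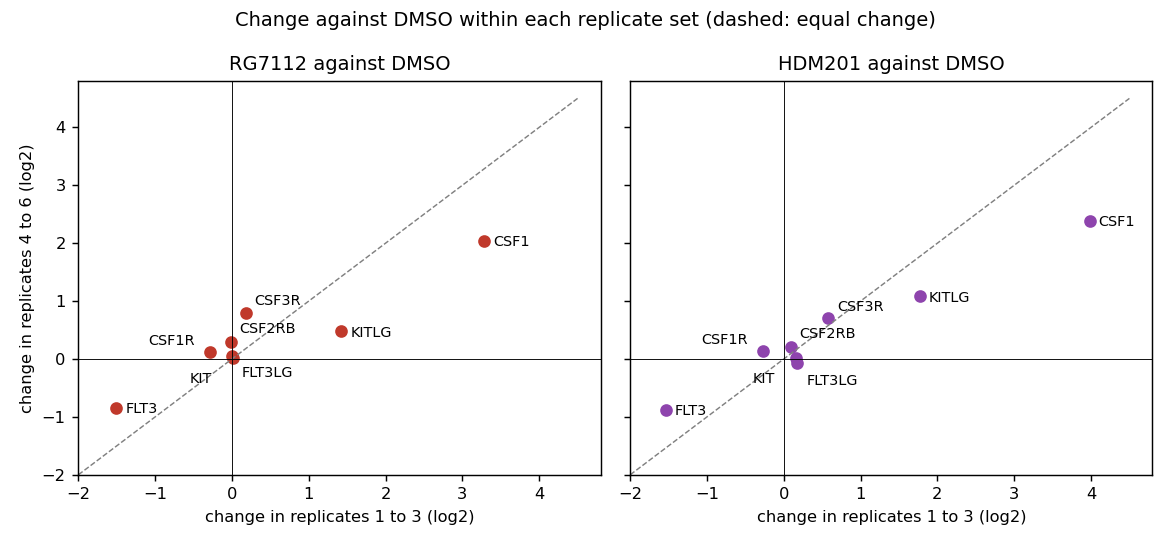
Change against DMSO of the 8 members within replicates 1 to 3 (horizontal axis, log2) and within replicates 4 to 6 (vertical axis, log2), for RG7112 on the left and HDM201 on the right, with the dashed line where both are equal. CSF1 (3.29 and 2.04 under RG7112) and KITLG (1.43 and 0.48) lie below the line, FLT3 (-1.50 and -0.85) lies above it, and CSF3R (0.18 and 0.80) lies above it.

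HDM201 and RG7112 were compared as given, at 500 nM and 2 µM, so a difference would not separate compound from dose. Of the 8 members 0 passed and 0 had arrays that did not overlap (0.0839% of all probes did), and none of the 21448 probes did in limma (0% called), with 749 probes and 1 member, KITLG, at an unadjusted p under 0.05. KITLG was at a mean of 5.23 ± 0.50 in HDM201 arrays and 4.75 ± 0.53 in RG7112 arrays (SD, n = 6 each), a difference of 0.48 ± 0.23 (95% interval 0.01 to 0.95, adjusted p = 0.991). CSF1 was at 9.07 ± 0.76 in HDM201 arrays and 8.55 ± 0.59 in RG7112 arrays (SD, n = 6 each), a difference of 0.52 ± 0.31 with an interval of -0.12 to 1.16. HDM201 and RG7112 arrays of the same number deviated together, though the own number was the best match in only 4 of 6 cases. HDM201 was the higher in 6 of 6 such pairs for CSF1, by 0.15 to 1.40, and for KITLG, by 0.03 to 1.10. For the other members it was the higher in 2 to 4 of 6 pairs. No share of all probes is given beside these counts, so they do not show that these members stand apart from other genes. With the replicate number as a block the intervals were -0.06 to 1.10 for CSF1 (unadjusted p = 0.0745) and 0.11 to 0.85 for KITLG (unadjusted p = 0.0147). The adjusted p was 0.888 for each, which was the smallest over all probes in that limma fit, where 1053 probes had an unadjusted p under 0.05. For FLT3 the interval ran from -0.58 to 0.51, for CSF1R from -0.44 to 0.47 and for CSF3R from -0.21 to 0.52. CSF2RB (-0.23 to 0.25), FLT3LG (-0.20 to 0.25) and KIT (-0.12 to 0.26) had the narrowest intervals.

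The other genes of these pathways were taken from 7 lists of 113 genes, of which 101 were measured. Of these 16 rose, 4 fell and 81 did not pass under RG7112, and 19 rose, 5 fell and 77 did not pass under HDM201. The changed shares of 19.8% and 23.8% stand beside 17.5% and 18.8% of all probes, and the list medians of 0.06 and 0.07 beside 0.03 and 0.02. The changed genes were few and their sizes are given by list.

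Among 13 other growth factors only LIF, a cytokine of the IL-6 family, passed, and it rose 3.24-fold under RG7112 (1.70 ± 0.23, adjusted p = 2.14e-05) and 3.32-fold under HDM201 (1.73 ± 0.23, adjusted p = 1.04e-05). PDGFA, a platelet-derived growth factor, had the largest difference among those that did not pass (0.33 and 0.44, adjusted p = 0.157 and 0.0538). Under HDM201 PDGFA passed in 14 of 31 alternatives, with 0.80 within replicates 1 to 3 (adjusted p = 0.00152) and 0.07 within replicates 4 to 6 (adjusted p = 0.805). Among single arrays left out it passed without RG7112 replicates 3 or 6 or HDM201 replicates 4, 5 or 6 (adjusted p from 0.0238 to 0.0474). Of 14 other receptors none passed under RG7112 and 2 rose under HDM201. CSF2RA, the alpha chain that pairs with CSF2RB to bind GM-CSF, differed by 0.50 ± 0.19 under RG7112 (adjusted p = 0.0715, with a pass in 5 of 30 alternatives) and rose by 0.73 ± 0.19 under HDM201 (adjusted p = 0.00753). The HDM201 change was 1.15 within replicates 1 to 3 and 0.30 within replicates 4 to 6, where the call was lost (adjusted p = 0.251). IL6R, the IL-6 receptor, differed by 0.34 ± 0.14 under RG7112 (adjusted p = 0.0949) and rose by 0.42 ± 0.14 under HDM201 (adjusted p = 0.0361). The IL6R call was lost without DMSO replicates 5 or 6 or HDM201 replicates 1, 2 or 3 (adjusted p from 0.0689 to 0.103). FLT1, a receptor of vascular endothelial growth factor, differed by -0.14 and -0.25 and did not pass.

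Of 28 signal relay genes 6 rose, 1 fell and 21 did not pass under RG7112, and 6 rose, 3 fell and 19 did not pass under HDM201. FGR, a SRC-family kinase of myeloid cells, rose 3.25-fold and 3.61-fold (1.70 ± 0.26 and 1.85 ± 0.26, adjusted p = 8.32e-05 and 2.09e-05), and STAT3, a transcription factor that CSF3R and IL-6 receptors activate, rose 1.96-fold and 2.16-fold. Both lay above DMSO on every treated array. PIK3R5, a subunit of a phosphoinositide kinase, rose under HDM201 by 0.42 ± 0.12 (adjusted p = 0.0135) and differed by 0.30 under RG7112 (adjusted p = 0.0824, and 0.0158 without RG7112 replicate 3). The PIK3R5 call under HDM201 was lost with replicates 1 to 3 alone (0.46, adjusted p = 0.149). AKT1, a survival kinase named here after its value was seen, was the relay gene that fell in both (-0.28 and -0.36, adjusted p = 0.0220 and 0.00331). PIK3CD (-0.30) and PIK3CG (-0.27), catalytic subunits of phosphoinositide kinases, also fell under HDM201 and were likewise named after their values were seen. The relay genes that rose and are not named above were SHC1 (0.59 and 0.74), HRAS (0.51 and 0.53) and FES (0.30 and 0.32) in both comparisons. For HRAS under RG7112 (adjusted p = 0.044) the change was 0.87 within replicates 1 to 3 and 0.15 within replicates 4 to 6. TYK2 rose under RG7112 only (0.28). These too are named after their values were seen. SOS2, an activator of RAS, differed by 0.21 and 0.34 and did not pass. Of 18 signal brakes UBASH3B, a phosphatase that acts on activated tyrosine kinases, rose in both (0.55 ± 0.11 and 0.69 ± 0.11, adjusted p = 0.00103 and 7.91e-05). CISH, a STAT5-induced inhibitor of cytokine signalling, fell under RG7112 by 0.41 on the log2 scale (adjusted p = 0.0467) and differed by -0.29 under HDM201 (adjusted p = 0.172). The CISH call was lost in 18 of 31 alternatives, among them without RG7112 replicate 3 (-0.27, adjusted p = 0.0818). PTPN6, the phosphatase SHP-1, rose under HDM201 by 0.29 ± 0.09 (adjusted p = 0.0308), a call lost in 9 of 31 alternatives, and the other brakes did not pass, among them SPRY1, an inhibitor of receptor kinase signalling, at -0.36 and -0.17.

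Of 11 response genes, which growth factor signals are known to induce, 3 rose, 2 fell and 6 did not pass in each comparison. EGR1, an immediate early transcription factor, rose 2.40-fold under RG7112 (1.26 ± 0.22, adjusted p = 2.79e-04) and 3.14-fold under HDM201 (1.65 ± 0.22, adjusted p = 9.41e-06), while PIM1, a kinase induced by STAT5, fell 1.70-fold (-0.77 ± 0.12, adjusted p = 7.92e-05) and 2.07-fold (-1.05 ± 0.12, adjusted p = 1.27e-06). MYC also fell (-0.54 and -0.55), and the survival genes BCL2L1 (0.42 and 0.63) and MCL1 (0.28 and 0.34) rose; these 3 are named to complete the counts, after their values were seen. DUSP6, a phosphatase of ERK, differed by 0.40 and 0.53 and did not pass (adjusted p = 0.157 and 0.0570). Under HDM201 DUSP6 passed in 10 of 31 alternatives, among them without DMSO replicate 5, RG7112 replicates 3, 4 or 5 or HDM201 replicate 4 (adjusted p from 0.0164 to 0.0471). The list therefore held genes that rose and genes that fell under each compound.

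Of 11 myeloid transcription factors CEBPB and SPI1 rose in both comparisons and 9 did not pass. CEBPB, a factor of monocytes and of emergency granulopoiesis, rose by 1.00 ± 0.12 and 1.02 ± 0.12 (adjusted p = 5.83e-06 and 2.47e-06). SPI1, which encodes PU.1, a factor known to act at the CSF1R and CSF3R genes, rose by 0.34 ± 0.07 and 0.38 ± 0.07 (adjusted p = 0.00111 and 2.70e-04). The SPI1 call under RG7112 was lost with replicates 4 to 6 alone (0.29, adjusted p = 0.0685). RUNX1 differed by -0.21 and -0.03 and CEBPE, a factor of granulocyte maturation, by 0.04 and 0.21, without passing. Among 6 genes of ectodomain shedding 3 rose in both comparisons and 3 did not pass. ADAM17, the protease that sheds CSF1, KITLG, CSF1R and KIT, rose by 0.46 ± 0.09 and 0.47 ± 0.09 (adjusted p = 0.00128 and 8.08e-04). Both ADAM17 calls were lost with replicates 4 to 6 alone (0.36 and 0.40, adjusted p = 0.101 and 0.0628). RHBDF2, which encodes iRhom2, a partner that brings ADAM17 to the surface, rose by 0.44 ± 0.11 and 0.56 ± 0.11 (adjusted p = 0.00673 and 7.05e-04). ADAM10, a related protease named after its value was seen, rose by 0.27 in both, and the protease MMP9 differed by -0.30 and -0.46 without passing. The plot of the lists shows the spread of all 101 genes.

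**Figure D4:**
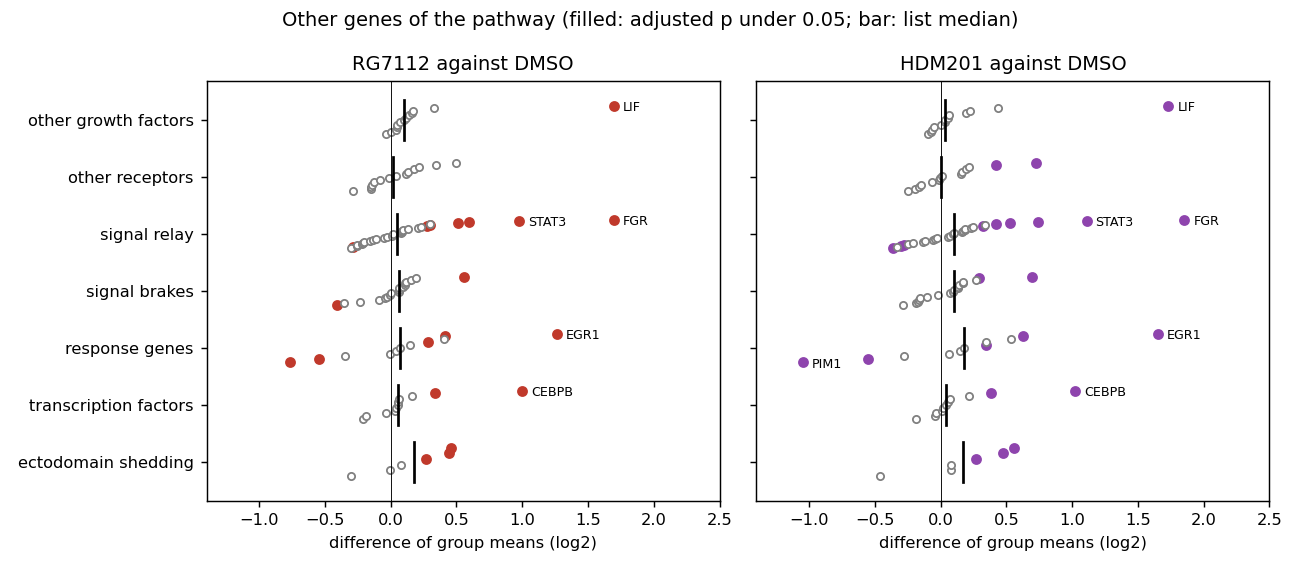
Change against DMSO (horizontal axis, log2) of 101 other genes in 7 lists under RG7112 (left) and HDM201 (right), with filled points where the adjusted p was under 0.05, open points otherwise and a vertical bar at each list's median. LIF, FGR and EGR1 stand to the right at 1.26 or more under each compound, and PIM1 lies furthest to the left at -0.77 and -1.05.

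For the 3 members that changed in both comparisons, the genes with the most similar pattern over the 18 arrays were taken by the root mean square difference of log2 signals after subtracting each probe's mean. Nearest to CSF1 were TGM5, a transglutaminase, at 0.27, DNAI3, a dynein chain of cilia, at 0.31, and the adhesion receptor CEACAM1 at 0.38, where CSF1 itself had an SD of 1.55 over the arrays. TGM5 changed by 2.83 under RG7112 and 3.12 under HDM201. Nearest to FLT3 were ASPM, a protein of the mitotic spindle, NDC1, a nucleoporin, and CDCA7L, a MYC-interacting protein, at 0.24, 0.24 and 0.25, with an SD of 0.75 for FLT3. ASPM changed by -1.21 and -1.43. Nearest to KITLG were CPEB4, a regulator of translation, at 0.24, ALDH7A1, an aldehyde dehydrogenase, at 0.29, and ATF3, a stress-induced transcription factor, at 0.29, with an SD of 0.74 for KITLG. The 18 arrays share treatment groups and replicate sets, so likeness over them describes these arrays only.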

How the data were processed

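The authors deposited log2 signals computed by RMA in oligo, per the submitters' processing notes. RMA subtracts background, gives every array one distribution of probe signals and then reduces each probe set to a single value. The normalization makes signals relative to the rest of the array. The deposited values still differed in spread, with interquartile ranges of 3.45 to 3.91. No version or genome build was found in the labels or notes. GEO's platform annotation gave 17709 of 21448 probes 1 symbol, 0 several and 3739 none, and each member was matched by symbol.

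The linear model of all 18 arrays used limma 3.58.1 (R 4.3.3) with group means, the default empirical Bayes step and Benjamini-Hochberg adjustment over all probes; a model with a mean per group and replicate set gave within-set changes and the interaction. Both were tested on simulated data. Named were the members, CDKN1A and MDM2, from each list and comparison with DMSO the 2 largest changes and the largest difference that did not pass, and the 3 nearest patterns. The members and lists were chosen with earlier results of these data known. Same-numbered RG7112 and DMSO arrays deviated together with correlations of 0.02 to 0.37. For HDM201 and DMSO the correlations were 0.08 to 0.30, and for HDM201 and RG7112 they were 0.12 to 0.44. The own number gave the highest correlation in 5 of 6, 5 of 6 and 4 of 6 cases, in that order. The main model did not use the numbers, and results with the number as a block are given beside it. Alternatives changed the prior, array weights, dim-probe filter, probes tested, normalization, arrays fitted, replicate block and probe of a symbol, and left out each array.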

Additional observations from a re-analysis of the deposited data

Results flagged for a closer look

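FLT3LG on HDM201 replicate 3 stood apart from its group, at 7.26 where the other HDM201 arrays lay at 6.91 to 7.03. It was 1 of 24 member and group combinations examined, and chance flags about 1 in 20. The value lies within the DMSO range of 6.65 to 7.27.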

How the results depend on the processing

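Of 24 changes of members (8 members in 3 comparisons), 20 kept their call under all alternatives that gave a value, and none reversed in a setting where it passed. CSF1 and FLT3 passed against DMSO in all 31 alternatives, with changes of 2.04 to 3.29 and -1.50 to -0.85 under RG7112 and 2.39 to 3.98 and -1.54 to -0.88 under HDM201. KITLG gave no value without the dimmest probes. The members that rose under RG7112 numbered 4 with array weights and 2 to 4 with each array left out. CSF3R under RG7112 passed in 9 of 31 alternatives. With the replicate number as a block CSF3R passed under RG7112 (adjusted p = 0.0198), 3 members rose and 1 fell in each comparison with DMSO, and 4780 and 4866 probes changed; among the members the block changed no other call. Of the other named genes, with the block CSF2RA (0.0130), PIK3R5 (0.0406), DUSP6 (0.00595) and IL6R (0.00268) passed and CISH (0.0510) did not under RG7112, and PDGFA (0.0134), DUSP6 (5.57e-04), MMP9 (0.00921) and SOS2 (0.0209) passed under HDM201. Over all alternatives, 83 of 102 changes of other named genes kept their call, 9 lost it and 10 gained it in at least 1 alternative. Replicates 1 to 3 alone gave 1973 and 2504 changed probes for RG7112 and HDM201, and replicates 4 to 6 alone 2148 and 2595, with 12 and 15 changed pathway genes; these fits hold 9 arrays in place of 18. With 1 array left out the changed probes ranged over 3074 to 4085 and 3374 to 5212, the pathway genes over 14 to 20 and 19 to 34, and the probes between HDM201 and RG7112 over 0 to 1. The probes whose change differed between replicate sets, 8 for RG7112 and 32 for HDM201, were 430 and 197 with array weights, 5 for RG7112 with array medians subtracted, 20 for HDM201 with the dimmer probes left out up to the median, and 1 to 10 and 4 to 83 with 1 array left out (83 without RG7112 replicate 3); the cause was not tested. Signal near the lower end limits KIT and KITLG.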
